A study of Mus musculus with 9 samples.

Results

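*Tarm1* and 9 inhibitory receptors of myeloid cells were followed through the 9 RNA sequencing libraries of mouse peritoneal macrophages. The 10 genes (*Tarm1*, *Lair1*, *Pirb*, *Lilrb4a*, *Sirpa*, *Siglece*, *Pilra*, *Cd300a*, *Cd300lf* and *Clec12a*) were chosen by name, as surface receptors of myeloid cells most of which are known to recruit SHP1 or SHP2. The choice was made with earlier results of these data known, and the study's quantitative PCR had already shown *Tarm1* lower with SHP099. All 10 were found among the 54059 genes of the deposited table, and all 10 had a mean level high enough to be tested.

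The study asked what the phosphatase SHP2, encoded by *Ptpn11*, does in macrophages given imiquimod (IMQ), a TLR7 agonist. The mice were C57BL/6 and, by the labels, 8 weeks old, while the methods give 8 to 10 weeks. Each was injected into the peritoneum with 1 ml of starch broth, the cavity was washed 3 days later, and the adherent cells were kept in culture. The labels name the cells peritoneal macrophages, and the treatment with IMQ and with SHP099 comes from the study's methods and legends. In the WT group, 3 libraries came from wild-type cells given 10 µg/ml IMQ for 4 h, and a vehicle in place of SHP099 is not stated for them. The M-*Shp2*-/- group, labelled SHP2lyz2-/-, held 3 libraries from mice with a floxed *Shp2* gene that the Lyz2-cre transgene deletes in myeloid cells; these cells had IMQ for 4 h as well, at a dose that is not stated. The third group, SHP099, held 3 libraries from wild-type cells that were first given 10 µM SHP099, an allosteric inhibitor of SHP2, for 2 h and then 10 µg/ml IMQ for 4 h. Every group shared the starch and the IMQ, and no library came from cells without IMQ. Nothing in the labels says that the 3 replicates of a group came from separate animals, so that the p values measure the spread between these samples and no more.

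Inhibitory receptors of this kind carry a short tyrosine motif, the ITIM, in the part that lies inside the cell. When a Src family kinase phosphorylates the tyrosine, the motif binds the SH2 domains of SHP1 or SHP2, or the lipid phosphatase SHIP1, and the bound phosphatase works against signals from activating receptors. Many of these receptors have an activating relative with no ITIM, which instead pairs through a charged residue in its membrane segment with an adaptor such as the Fc receptor gamma chain or DAP12, and *Tarm1* is a receptor of that activating type.

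Levels are FPKM, fragments scaled to the length of the transcript and the depth of the library, which allow genes of different length to be compared. Between 39837643 and 50983134 reads lay behind each library, with a median of 44368612 in WT, 43181228 in M-*Shp2*-/- and 43823652 in SHP099. The reads behind a member ranged from 206 for *Siglece* in SHP099 replicate 1 to 78683 for *Sirpa* in M-*Shp2*-/- replicate 3. Libraries of 1 group did not always resemble each other more than libraries of different groups. On the log2 scale the correlation across genes was 0.954 to 0.992 within groups and 0.96 to 0.988 between groups. M-*Shp2*-/- replicate 3 had a correlation of 0.967 with replicate 1 and 0.954 with replicate 2 of its group, while those replicates had one of 0.992 with each other.

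*Ptpn11* itself was read first, as the gene that the labels say is deleted. Its FPKM was 45.8, 44.0 and 40.0 in the WT libraries, 18.6, 17.8 and 18.9 in the M-*Shp2*-/- libraries and 43.0, 42.1 and 39.6 in the SHP099 libraries. All 3 M-*Shp2*-/- libraries lay below the other 6, at a mean of 42.5% of WT, and the WT and SHP099 ranges overlapped. *Ptpn11* fell in M-*Shp2*-/- against WT (log2 fold change -1.19, SE 0.10, adjusted p = 0.0168 by limma) and was lower in M-*Shp2*-/- than in SHP099 (-1.13, SE 0.08, adjusted p = 0.0109). SHP099 acts on the protein, and the *Ptpn11* transcript gave a log2 fold change of -0.05 against WT (adjusted p = 0.729). *Ptpn6*, which encodes SHP1, was the more abundant of the pair, with mean levels of 262, 288 and 294 FPKM in WT, M-*Shp2*-/- and SHP099, and did not pass in any of the 3 comparisons.

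The proteins of the 10 genes differ in the feature that defines the family. The longest complete coding sequence of each gene was searched for the ITIM, read as isoleucine, leucine, valine or serine, then any residue, tyrosine, any 2 residues, and isoleucine, leucine or valine. The membrane segment was taken as the most hydrophobic window of 19 residues. Of the 10 members, 9 had a match on the cytoplasmic side of that window, 17 matches in all. *Siglece*, *Pilra* and *Clec12a* had 1, *Lair1*, *Lilrb4a*, *Cd300a* and *Cd300lf* had 2, and *Pirb* and *Sirpa* had 3. *Tarm1* had none: its cytoplasmic part is 19 residues long, and its 1 match, at tyrosine 57, lies outside the cell. The motif is short, and 49.1% of 21481 proteins held a match somewhere in their length, so that a match by itself says little; a match is a description of the letters and not of a working site.

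*Tarm1* has instead an arginine codon inside its membrane window, at position 258 of 293. The coding bases around it are shown because this is the feature that sets *Tarm1* apart from the other 9 members, with those of *Pira2*, the activating relative of *Pirb*, and *Pilrb1*, the activating relative of *Pilra*, beside it. Capitals mark the codon for the arginine or lysine. All coordinates are GRCm38, and all 3 genes lie on the minus strand.
Tarm1, chr7:3489160-3489186, minus strand: gataatctcatcCGGgtcggtgtggct
Pira2, chr7:3838287-3838313, minus strand: gagaatctcatcAGGatggggatggca
Pilrb1, chr5:137854922-137854948, minus strand: atgctcctggctAAAgttttggtcata
In *Pira2* the arginine codon is number 649 of 680, and in *Pilrb1* the lysine codon is number 202 of 225. Neither relative, nor *Lilr4b*, the relative of *Lilrb4a*, had an ITIM match on its cytoplasmic side. Unlike *Pira2* and *Pilrb1*, *Lilr4b* had no charged residue in its membrane window. The membrane windows of the other 9 members held no charged residue.

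The first cytoplasmic ITIM of each of the 9 inhibitory members is shown as its 18 coding bases, since this is the stretch through which SHP1 or SHP2 would be bound. Capitals mark the tyrosine codon.
Lair1, chr7:4009790-4009807, minus strand, tyrosine 228: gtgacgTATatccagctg
Pirb, chr7:3713862-3714103, minus strand, joined across an intron, tyrosine 713: agcctaTATgcttcagtg
Lilrb4a, chr10:51496021-51496038, plus strand, tyrosine 300: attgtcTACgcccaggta
Sirpa, chr2:129629954-129629971, plus strand, tyrosine 440: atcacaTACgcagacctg
Siglece, chr7:43651585-43651602, minus strand, tyrosine 432: atacatTATgcgaccctc
Pilra, chr5:137823571-137823588, minus strand, tyrosine 267: atcgtgTATgcttccatc
Cd300a, chr11:114899846-114899863, plus strand, tyrosine 262: gtggaaTATagcacattg
Cd300lf, chr11:115117648-115117665, minus strand, tyrosine 241: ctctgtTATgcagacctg
Clec12a, chr6:129350433-129350450, plus strand, tyrosine 7: attgttTATgcaaatctc
*Clec12a* is a C-type lectin whose N terminus lies in the cell, and its motif is within the first residues of the protein. In the other 8 the motif follows the membrane window.

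**Figure D1:**
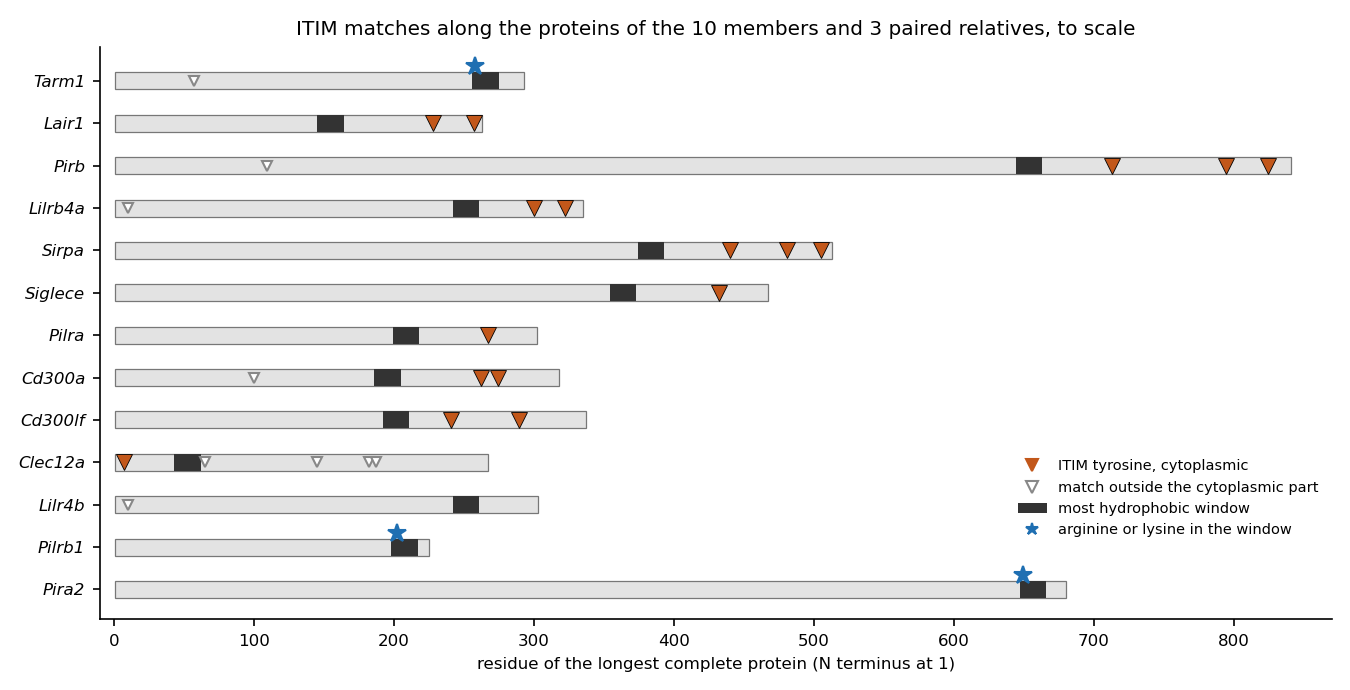
Map of the longest complete protein of each member and of 3 paired relatives, drawn to scale from the N terminus at residue 1 (x axis, residues). Dark blocks are the most hydrophobic window, filled triangles are cytoplasmic ITIM tyrosines, open triangles are matches elsewhere and stars are an arginine or lysine inside the window; 9 members carry filled triangles, and *Tarm1* carries a star.

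*Tarm1* (ENSMUSG00000053338, chr7:3486500-3502624, minus strand) encodes a receptor that pairs with the Fc receptor gamma chain and co-stimulates cytokine release in myeloid cells. Its FPKM was 70.9, 77.0 and 68.9 in WT, 38.3, 38.4 and 36.0 in M-*Shp2*-/-, and 21.4, 25.6 and 30.2 in SHP099. The 3 groups did not overlap: every WT library lay above every M-*Shp2*-/- library, and every M-*Shp2*-/- library above every SHP099 library. Group means were 72.3 ± 4.24, 37.6 ± 1.33 and 25.7 ± 4.38 FPKM (SD, n = 3), so that M-*Shp2*-/- stood at 52.0% and SHP099 at 35.6% of WT. *Tarm1* fell in M-*Shp2*-/- (log2 fold change -0.93, SE 0.09, adjusted p = 0.0299) and in SHP099 (-1.47, SE 0.13, adjusted p = 0.00469, both by limma). Both comparisons use the same WT libraries. The difference between M-*Shp2*-/- and SHP099 did not pass (log2 fold change 0.54, SE 0.13, adjusted p = 0.267). The fall in SHP099 passed with each of the 6 libraries left out in turn, at adjusted p of 0.00789 to 0.0353. The fall in M-*Shp2*-/- did not pass when any 1 of its 6 libraries was left out, at adjusted p of 0.0692 to 0.272, although its size stayed between -0.96 and -0.88. It also did not pass without the trend in the prior variance (adjusted p = 0.0724) or with a replicate block (adjusted p = 0.157), and the range over all alternatives was 0.0134 to 0.272. In bulk RNA, fewer cells of a type and less RNA per cell cannot be told apart.

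*Lair1* (ENSMUSG00000055541, chr7:4003402-4063204, minus strand) encodes a collagen receptor with a pair of ITIMs, and it moved the other way. Its FPKM was 12.1, 11.5 and 17.3 in WT, 17.6, 16.9 and 22.7 in M-*Shp2*-/-, and 36.5, 33.1 and 37.5 in SHP099. All 3 SHP099 libraries were above the other 6, while the WT and M-*Shp2*-/- ranges met, the highest WT library lying above the lowest M-*Shp2*-/- library. Means were 13.6 ± 3.18, 19.1 ± 3.16 and 35.7 ± 2.29 FPKM (SD, n = 3), with SHP099 at 262% of WT. *Lair1* rose in SHP099 (log2 fold change 1.35, SE 0.16, adjusted p = 0.00969). It did not pass in M-*Shp2*-/- against WT (0.47, SE 0.19, adjusted p = 0.467) or between M-*Shp2*-/- and SHP099 (-0.88, SE 0.13, adjusted p = 0.106). Without SHP099 replicate 2 the rise no longer passed (log2 fold change 1.40, adjusted p = 0.0565); it also missed without the filter on low FPKM (adjusted p = 0.0629), and the range over all alternatives was 0.00394 to 0.0629. *Col1a1*, which encodes a collagen chain and so a ligand of *Lair1*, was at 18.9, 101 and 10.0 FPKM in WT, 50.4, 16.4 and 206 in M-*Shp2*-/-, and 166, 60.7 and 48.0 in SHP099. Its groups overlapped and it did not pass in any comparison, and its part in the level of *Lair1* was not tested.

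**Figure D2:**
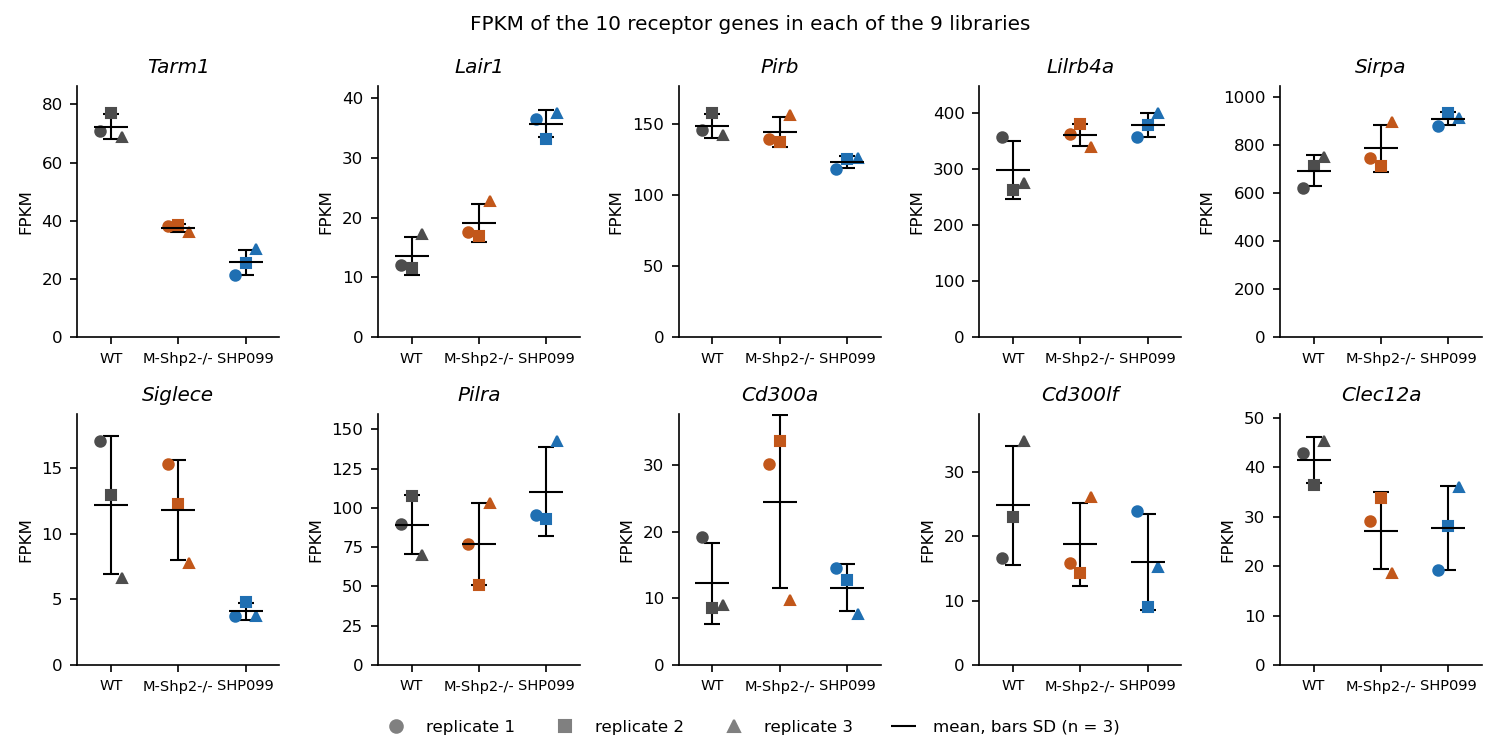
FPKM (y axis, linear from 0) of each of the 10 genes in the WT, M-*Shp2*-/- and SHP099 libraries; each point is 1 library, horizontal bars are group means and error bars the SD (n = 3). The 3 groups separate for *Tarm1*, from 68.9 to 77.0 in WT down to 21.4 to 30.2 in SHP099, and the SHP099 points of *Lair1* lie above the other 6.

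*Siglece* (ENSMUSG00000030474, chr7:43651070-43660161, minus strand), a receptor for sialic acid on myeloid cells, was the least abundant member. Its FPKM was 17.1, 12.9 and 6.60 in WT, 15.3, 12.2 and 7.75 in M-*Shp2*-/-, and 3.69, 4.82 and 3.75 in SHP099. WT and M-*Shp2*-/- covered nearly the same range, with replicate 3 the lowest of each, and the 3 SHP099 libraries lay below the other 6, at a mean of 33.5% of WT. The difference between SHP099 and WT came close to the threshold without passing it (log2 fold change -1.29, SE 0.30, adjusted p = 0.0508). It passed with WT replicate 3 left out (-1.65, adjusted p = 0.00853) and with median-of-ratios scaling (-1.42, adjusted p = 0.0357), within a range of 0.00853 to 0.174 over the alternatives. Against WT, M-*Shp2*-/- gave a log2 fold change of -0.01 (SE 0.37, adjusted p = 0.995).

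*Sirpa* (ENSMUSG00000037902, chr2:129592835-129632228, plus strand) was the most abundant member and ranked 97 among all genes of the table by mean FPKM. It encodes the macrophage receptor for CD47, the signal that restrains phagocytosis. Its FPKM was 621, 712 and 751 in WT, 747, 714 and 898 in M-*Shp2*-/-, and 882, 934 and 915 in SHP099. The 3 SHP099 libraries lay above the 3 WT libraries, at a mean of 131% of WT, and M-*Shp2*-/- overlapped with both groups. The test of SHP099 against WT gave a log2 fold change of 0.39 (SE 0.10, adjusted p = 0.0548), which did not pass; it passed without WT replicate 3 (adjusted p = 0.0321), within a range of 0.0321 to 0.355 over the alternatives. Its ligand *Cd47* had group means of 95.8, 83.9 and 78.2 FPKM in WT, M-*Shp2*-/- and SHP099 and did not pass in any comparison.

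*Pirb* (ENSMUSG00000058818, chr7:3711409-3720391, minus strand) and *Lilrb4a* (ENSMUSG00000112148, chr10:51490956-51496611, plus strand) are the mouse members of the leukocyte immunoglobulin-like receptor family here, and *Pirb* is known as a receptor for class I MHC molecules. *Pirb* was at 146, 157 and 142 FPKM in WT, 139, 137 and 156 in M-*Shp2*-/-, and 118, 125 and 126 in SHP099. Its SHP099 libraries lay below the other 6, by a small step (log2 fold change -0.27 against WT, SE 0.08, adjusted p = 0.0808) that passed with median-of-ratios scaling (-0.41, adjusted p = 0.0475). *Lilrb4a* was at 358, 263 and 276 FPKM in WT, 363, 379 and 340 in M-*Shp2*-/-, and 357, 378 and 400 in SHP099. WT replicate 1 was at the level of the other groups and the other WT libraries were below them, and no comparison passed. Both levels carry a limit of sequence: 34% of the 50-base stretches of the *Pirb* transcripts and 47.2% of those of *Lilrb4a* also occur in transcripts of other genes. For *Pirb* the gene that shared most was *Gm14548*, with 17.7%. For *Lilrb4a* it was *Gm49339*, with 33.7%, a gene whose exons overlap it on the same strand, and *Gm40645* overlaps it on the opposite strand. The strand on which reads were counted is not stated, and the levels of both genes are uncertain to that extent.

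*Pilra* (ENSMUSG00000046245, chr5:137821952-137836281, minus strand), an inhibitory receptor for sialylated glycoproteins, was at 89.9, 108 and 70.1 FPKM in WT, 77.0, 50.9 and 103 in M-*Shp2*-/-, and 95.2, 93.1 and 143 in SHP099. All 3 groups overlapped, and the test gave log2 fold changes of -0.25 for M-*Shp2*-/- and 0.30 for SHP099 against WT (adjusted p = 0.664 and 0.419). Exons of *Zcwpw1* overlap it on the opposite strand and 20.8% of its 50-base stretches occur in other genes, so that its level is uncertain in the same way.

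*Cd300a* (ENSMUSG00000034652, chr11:114890041-114904654, plus strand) and *Cd300lf* (ENSMUSG00000047798, chr11:115116214-115133992, minus strand) are lipid-binding inhibitory receptors encoded 212 kb apart. *Cd300a* was at 19.3, 8.48 and 9.07 FPKM in WT, 30.2, 33.7 and 9.70 in M-*Shp2*-/-, and 14.5, 12.7 and 7.68 in SHP099. It was high in M-*Shp2*-/- replicates 1 and 2 and near the WT level in replicate 3, so that its spread within M-*Shp2*-/- (SD 13.0) was larger than its distance from WT (log2 fold change 0.86, SE 0.51, adjusted p = 0.514). *Cd300lf* was at 16.6, 23.0 and 34.9 FPKM in WT, 15.8, 14.3 and 26.2 in M-*Shp2*-/-, and 23.9, 8.93 and 15.2 in SHP099. Its 3 groups overlapped, and it did not pass in any comparison.

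*Clec12a* (ENSMUSG00000053063, chr6:129342691-129365303, plus strand), a lectin that senses dead cells and uric acid crystals, was at 42.9, 36.4 and 45.4 FPKM in WT, 29.1, 33.8 and 18.7 in M-*Shp2*-/-, and 19.1, 28.1 and 36.0 in SHP099. Every WT library lay above every library of the other groups, and the other groups overlapped with each other. The log2 fold changes were -0.63 in M-*Shp2*-/- and -0.61 in SHP099 against the shared WT libraries (SE 0.22 and 0.22), with adjusted p of 0.465 and 0.132, and neither passed.

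Against WT, then, deletion of *Shp2* went with a fall of *Tarm1*, the activating member, and none of the 9 ITIM receptors passed. Of the 10 members, 1 passed at an adjusted p of at most 0.05 in M-*Shp2*-/- against WT, lower by the test, beside 0.0873% of the 11450 genes tested (10 genes). By direction, 0% of all genes rose and 0.0873% fell. No member met the thresholds of the study, which were applied here to the limma results, while the study used DESeq. They ask for an adjusted p no higher than 0.005 and a change of 1 or more on the log2 scale in either direction. Of all genes, 0.00873% met them. *Tarm1* and *Clec12a* were the members whose 3 M-*Shp2*-/- libraries did not overlap with WT, both lower, where 19.1% of all genes did not overlap. Over the members, 4 log2 fold changes were above 0 and 6 below, with a median of -0.02, and the median of all genes was 0.15. *Tarm1* was at -1.07 relative to the median of all genes. Median-of-ratios scaling brought that median from 0.15 to 0.0059, and *Tarm1* was then at -1.08 (adjusted p = 0.0134 by limma). The call of *Tarm1* was lost with any 1 library left out (adjusted p of 0.0692 to 0.272 by limma). It was also lost without the trend in the prior variance (0.0724) and with the replicate block (0.157).

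In cells given SHP099, *Tarm1*, the activating member, fell against WT and *Lair1*, an ITIM receptor, rose. Thus 2 of the 10 members passed, beside 6.96% of all genes (797 genes), and the receptors were not tested as a set. By direction, 1 member rose beside 4.55% of all genes (521 genes) and 1 fell beside 2.41% (276 genes). *Tarm1* alone among the members met the thresholds of the study, which 0.166% of all genes met. Of the members, 6 had SHP099 libraries that did not overlap with WT: *Lair1* and *Sirpa* were above, and *Tarm1*, *Pirb*, *Siglece* and *Clec12a* were below. The share of all genes without overlap was 34.6%. The median log2 fold change of the members was -0.14 and that of all genes 0.13, again with 4 members above 0 and 6 below. With median-of-ratios scaling the median of all genes moved from 0.13 to -0.00039, and the genes called turned from 521 higher and 276 lower to 200 higher and 376 lower. Relative to the median of all genes, *Tarm1* was at -1.59 and *Lair1* at 1.22, and with the scaling at -1.61 and 1.21, so that their directions did not turn with it.

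**Figure D3:**
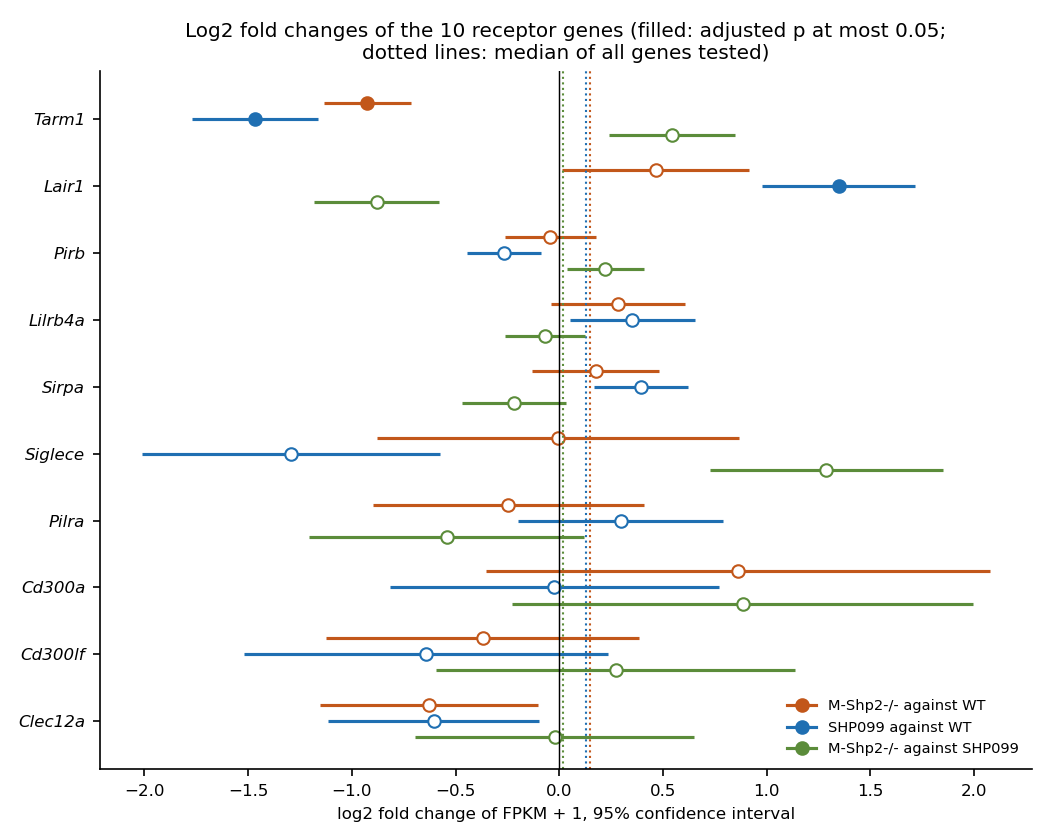
Log2 fold change of FPKM + 1 (x axis) with its 95% confidence interval for each of the 10 members in the 3 comparisons; filled points have an adjusted p of at most 0.05, and dotted lines mark the median of all genes tested in the comparison of that colour. *Tarm1* is at -0.93 and -1.47 against WT and *Lair1* at 1.35 in SHP099; both comparisons with WT use the same WT libraries.

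The direct comparison of deletion and inhibitor asks where the groups with less SHP2 or with inhibited SHP2 differ. M-*Shp2*-/- against SHP099 gave 0 members past the limma test, with 4 at an unadjusted p under 0.05, and voom on the recovered reads also gave 0. Of all genes, 0.0699% passed (8 genes), 0.0262% higher and 0.0437% lower in M-*Shp2*-/-, and 0% met the study's thresholds. *Tarm1*, *Pirb* and *Siglece* were higher and *Lair1* lower in every M-*Shp2*-/- library than in every SHP099 library, 4 members without overlap where 17.7% of all genes had none. Values for these were a log2 fold change of 0.54 for *Tarm1*, 0.22 for *Pirb*, 1.29 for *Siglece* and -0.88 for *Lair1*, with adjusted p of 0.267, 0.353, 0.192 and 0.106. The members' median was 0.10 and that of all genes 0.02. M-*Shp2*-/- replicate 3 decided this count: without it 5 members passed (*Tarm1*, *Cd300a* and *Siglece* higher, *Lair1* and *Sirpa* lower), together with 2277 of all genes (19.9%).

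The partners of the members were read from lists that were drawn up by function. Ligands of the receptors gave 0 of 21 tested genes past the test in each of the 3 comparisons with limma, with 2, 5 and 4 at an unadjusted p under 0.05 in M-*Shp2*-/- and SHP099 against WT and in M-*Shp2*-/- against SHP099. Their medians were -0.05, -0.01 and -0.03 on the log2 scale. The most abundant ligands were *H2-D1* and *B2m*, which make class I MHC molecules, and *Apoe*, a ligand of the human relative of *Lilrb4a*. *H2-D1* was at 6323, 6467 and 9213 FPKM in WT, and its group means were 7334, 6612 and 8589 in WT, M-*Shp2*-/- and SHP099.

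The list of other inhibitory receptors held 28 genes, of which 13 were high enough to test. Genes were placed on it by name, and none was checked for a cytoplasmic ITIM. In SHP099 against WT 3 of the 13 fell and 0 rose, beside 2.41% and 4.55% of all genes (376 lower and 200 higher with median-of-ratios scaling); in the other comparisons 0 passed by limma, with 5 at an unadjusted p under 0.05 in M-*Shp2*-/- against WT and 4 in M-*Shp2*-/- against SHP099. Those that fell were *Cd22*, the sialic acid receptor best known from B cells (log2 fold change -1.03, SE 0.19, adjusted p = 0.0295), *Klra2*, of the Ly49 family (-1.12, SE 0.22, adjusted p = 0.0346), and *Milr1*, also called Allergin-1 (-0.89, SE 0.19, adjusted p = 0.0417). Exons of other genes overlap *Cd22* and *Milr1* on the opposite strand. The list median was 0.09 in M-*Shp2*-/- and -0.06 in SHP099 against WT, and 0.17 between the groups. Its most abundant genes did not pass: *Fcgr2b*, the inhibitory Fc receptor, averaged 701, 583 and 705 FPKM in WT, M-*Shp2*-/- and SHP099, and *Ly9* averaged 208, 227 and 198. *Clec2d* averaged 132, 96.0 and 144 and did not pass either, and its relative *Clec2i* stood on the list of ligands.

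Activating and paired receptors, the class to which *Tarm1* belongs, had 20 tested genes. Of these, 2 rose and 1 fell in SHP099 against WT, beside the same 4.55% and 2.41% of all genes, and 0 passed in the other comparisons by limma, each with 4 at an unadjusted p under 0.05. *Clec7a*, the beta-glucan receptor Dectin-1, fell furthest: its FPKM was 438, 334 and 320 in WT, 237, 288 and 134 in M-*Shp2*-/-, and 121, 63.7 and 108 in SHP099. Its groups did not overlap, and SHP099 against WT gave a log2 fold change of -1.93 (SE 0.25, adjusted p = 0.0131). M-*Shp2*-/- against WT gave -0.78 (SE 0.29, adjusted p = 0.465). *Clec4e*, the receptor Mincle, rose in SHP099 from a mean of 3385 to 4660 FPKM (log2 fold change 0.46, SE 0.10, adjusted p = 0.0413), and *Cd300ld*, an activating relative of *Cd300lf*, rose by less (0.42, SE 0.08, adjusted p = 0.0325). *Clec4d*, the next most abundant, gave 0.41 with an adjusted p of 0.0914. The relatives *Lilr4b*, *Pilrb1* and *Pira2* did not pass. *Lilr4b* was at group means of 510, 584 and 641 FPKM, *Pilrb1* at 19.2, 18.2 and 21.1, and *Pira2* at 9.27, 10.6 and 7.62. The list medians were 0.10, 0.07 and -0.10 in the 3 comparisons.

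Adaptors and kinases hold the machinery on both sides of the ITIM. Of 19 tested genes, 1 rose and 3 fell in SHP099 against WT (4.55% and 2.41% of all genes), and 0 passed in the other comparisons by limma, with 2 and 5 at an unadjusted p under 0.05. *Src* fell to 43.0% of WT (log2 fold change -1.20, SE 0.12, adjusted p = 0.00769), *Blnk* to 51.5% (-0.90, SE 0.13, adjusted p = 0.0157) and *Lyn*, the kinase best known for phosphorylating ITIMs, to 72.9% (-0.46, SE 0.10, adjusted p = 0.0385). Exons of Gm26857 overlap *Lyn* on the opposite strand. *Skap2*, an adaptor bound by Sirpa-linked complexes, rose (0.44, SE 0.08, adjusted p = 0.0269). *Fcer1g*, the Fc receptor gamma chain and signaling partner of *Tarm1*, was at 1385, 1162 and 1201 FPKM in WT, 1290, 1280 and 1018 in M-*Shp2*-/-, and 1045, 1124 and 1269 in SHP099, with log2 fold changes of -0.07 and -0.12 against WT that did not pass. *Tyrobp*, which encodes DAP12, averaged 803, 796 and 691 FPKM and *Syk*, the kinase that both adaptors recruit, averaged 396, 388 and 381, and neither passed. The list medians were 0.02, -0.12 and 0.12.

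Phosphatases and docking proteins had 17 tested genes. *Ptpn11* was the 1 gene that passed in both comparisons with M-*Shp2*-/-. In SHP099 against WT, *Pag1*, a docking protein for the kinase *Csk*, rose from a mean of 11.9 to 27.0 FPKM (log2 fold change 1.11, SE 0.12, adjusted p = 0.00846), and the other 16 did not pass, where 6.96% of all genes passed. *Ptprc* and *Cbl*, with *Ptpn6* the most abundant of the list, averaged 196, 185 and 181 FPKM and 181, 199 and 210 FPKM. The list medians were 0.09, 0.03 and 0.02.

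**Figure D4:**
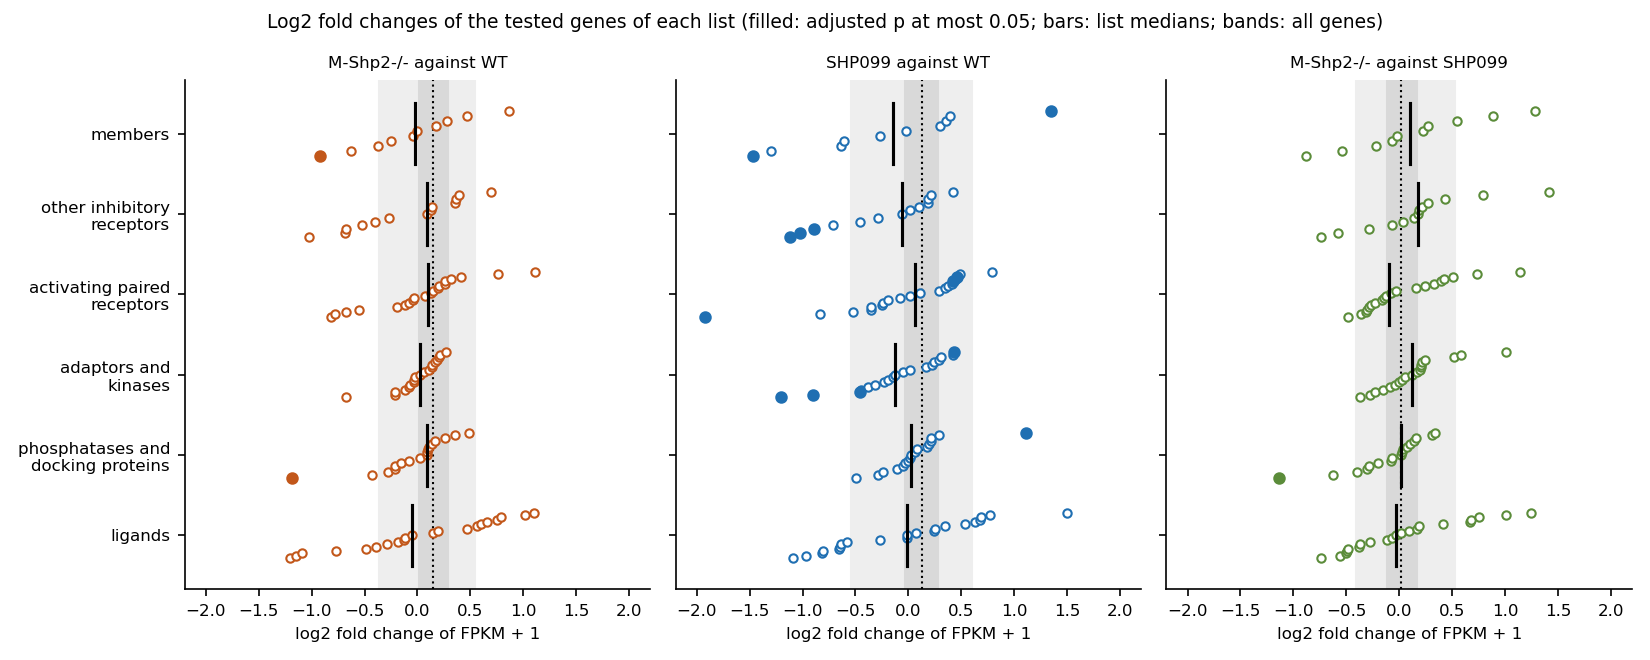
Log2 fold change of FPKM + 1 (x axis) of each tested gene of the members and 5 partner lists (rows) in the 3 comparisons (panels); filled points passed at an adjusted p of at most 0.05, black bars are list medians, grey bands span the 5th to 95th and the 25th to 75th percentile of all genes and the dotted line is their median. In the SHP099 panel 2 members, 3 other inhibitory receptors, 3 activating or paired receptors, 4 adaptors or kinases and 1 docking protein are filled.

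*Tarm1*, *Pirb* and *Lair1* lie in 1 region of 577 kb on chromosome 7 (chr7:3486500-4063204), which holds the paired receptors of the leukocyte receptor complex among other genes. *Tarm1* and *Pirb* are 209 kb apart and *Pirb* and *Lair1* 283 kb. Of 34 genes of the table in the region, 17 were tested and 7 had 0 FPKM in every library. In M-*Shp2*-/- against WT, 1 of the 17 passed, *Tarm1*, and the regional median was 0.07. In SHP099 against WT, *Lair1* rose and 2 genes fell, *Tarm1* and *Gm44165*, and the regional median was -0.15. *Gm44165* (log2 fold change -1.10, adjusted p = 0.0125) lies within the span of *Tarm1* on the same strand, so that it is no separate witness. The 13 tested genes that are neither members nor *Gm44165*, with *Pira2* and *Lilra6* among them, did not pass in any comparison. Neighbours at either end of the region thus moved in opposite directions in SHP099, with genes in between that did not pass.

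The promoters of *Tarm1* and *Lair1* are printed because these members moved apart in the same cells. Both are from RefSeq on GRCm38.p6, run from 250 bases before the start to 50 after it, and are written 5′ to 3′ on the minus strand of the genome. Each promoter was searched on both strands for AP-1 (TGANTCA), the PU.1/ETS core (GAGGAA) and the NF-kappaB site, motifs that do not overlap each other in these sequences. Capitals mark a match.
Tarm1, chr7:3502575-3502874, minus strand: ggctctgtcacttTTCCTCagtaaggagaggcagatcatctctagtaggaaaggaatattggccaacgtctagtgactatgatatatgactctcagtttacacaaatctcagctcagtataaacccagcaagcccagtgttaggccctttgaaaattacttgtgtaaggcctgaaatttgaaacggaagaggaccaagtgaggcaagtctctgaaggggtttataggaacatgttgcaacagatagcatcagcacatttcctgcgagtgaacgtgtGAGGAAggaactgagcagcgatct
Lair1, chr7:4063155-4063454, minus strand: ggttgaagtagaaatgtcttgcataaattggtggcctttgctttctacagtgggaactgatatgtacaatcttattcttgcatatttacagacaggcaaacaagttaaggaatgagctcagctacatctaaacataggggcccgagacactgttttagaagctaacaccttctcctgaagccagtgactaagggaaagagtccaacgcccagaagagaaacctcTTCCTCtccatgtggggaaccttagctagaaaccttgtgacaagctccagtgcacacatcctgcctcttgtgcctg
In *Tarm1* the PU.1/ETS core begins 237 bases before the start and again 26 bases after it, and in *Lair1* it begins 26 bases before the start. Of the members, 8 of 10 matched an entry; *Lilrb4a* and *Sirpa* did not. All 8 held the PU.1/ETS core, which 28.3% of 32851 promoters hold. AP-1 was found in 1 of the 8, *Clec12a* (7.81% of all promoters), and the NF-kappaB site in 1, *Cd300a* (5.8% of all promoters). These matches describe letters in a window, and no binding was measured.

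Among all genes tested, the 5 whose log2 values followed *Tarm1* most closely over the 9 libraries were *Flrt3* (Pearson r 0.985), *Src* (0.980), *Ptgs2os2* (0.974), *Il1rn* (0.974) and *Eva1b* (0.971). The 9 points fall into 3 groups, so that r mostly restates the order of the groups and carries no p. *Il1rn*, which encodes the interleukin-1 receptor antagonist, had the steepest steps: 348, 440 and 445 FPKM in WT, 144, 147 and 131 in M-*Shp2*-/-, and 54.8, 47.2 and 58.8 in SHP099. It fell in both comparisons with WT (log2 fold change -1.53, adjusted p = 0.0168, and -2.91, adjusted p = 0.000742) and was higher in M-*Shp2*-/- than in SHP099 (1.38, adjusted p = 0.0109). *Flrt3* fell in both as well (-1.04, adjusted p = 0.0442, and -1.51, adjusted p = 0.00327). *Src*, *Ptgs2os2* and *Eva1b* fell in SHP099 (adjusted p = 0.00769, 0.0161 and 0.00434) and did not pass in M-*Shp2*-/- against WT.

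**Figure D5:**
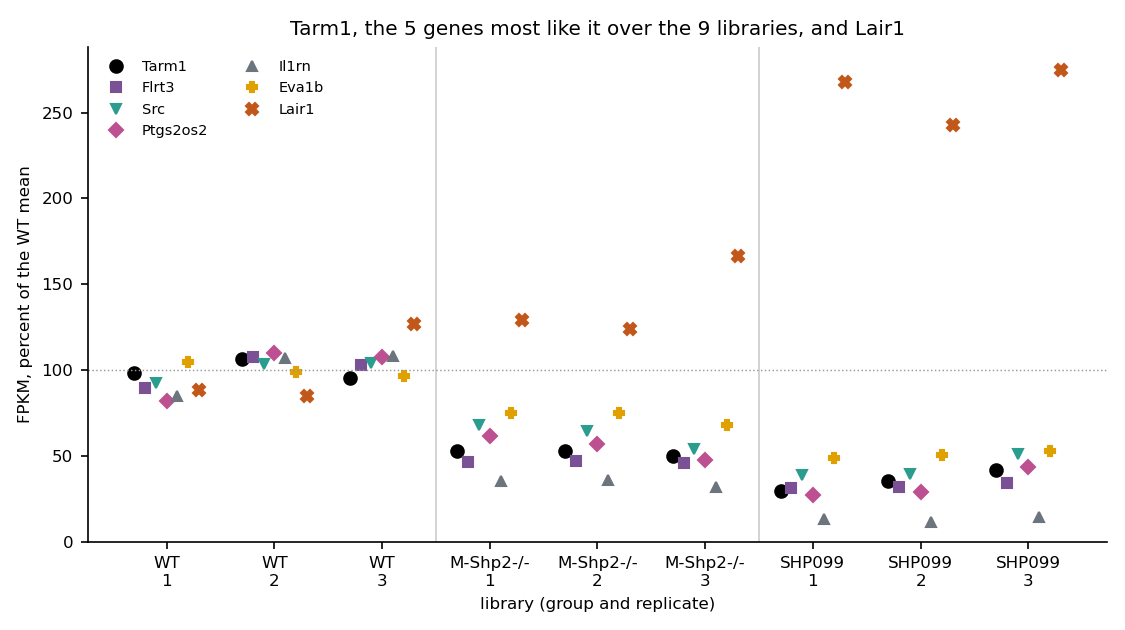
FPKM as a percent of the WT mean (y axis, linear from 0) of *Tarm1*, the 5 genes most like it and *Lair1* in each of the 9 libraries (x axis); each point is 1 library. *Tarm1* steps down from WT to 52.0% in M-*Shp2*-/- and 35.6% in SHP099 on average, and *Lair1* steps up to 262% in SHP099.

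Markers of cell types were read beside these results. Macrophage markers were abundant in every library: the sum over 8 of them was 10421, 13427 and 11186 FPKM in WT, 7598, 7470 and 8412 in M-*Shp2*-/-, and 11778, 13006 and 13735 in SHP099. Most of that sum was *Lyz2*, whose locus drives the Cre, at means of 8540 in WT, 5004 in M-*Shp2*-/- and 10114 in SHP099. *Lyz2* did not pass. In M-*Shp2*-/- against WT 0 of the 8 passed by limma, with 2 at an unadjusted p under 0.05. Of the 8, *Csf1r* rose in SHP099 against WT, from a mean of 78.9 to 199 FPKM (log2 fold change 1.38, adjusted p = 0.0222), and it followed the direction of *Lair1*. Resident peritoneal macrophages were marked weakly, with a sum over 6 markers of 4.57 to 12.9 FPKM, a lead gene of *Icam2*, and 0 of 4 tested genes past the limma test in each comparison with 0 at an unadjusted p under 0.05. *Gata6*, which defines them, was at 0.380 to 2.97 FPKM.

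Of the monocyte markers, 4 were high enough to test, and 2 of these fell in SHP099 against WT. In the other comparisons 0 of 4 passed by limma, with 1 in each at an unadjusted p under 0.05. The sum over the 6 listed genes was 857, 899 and 1055 FPKM in WT, 610, 772 and 562 in M-*Shp2*-/-, and 459, 508 and 554 in SHP099. Most of that sum was *F10*, and *F10* and *Chil3* were the genes that fell (log2 fold change -0.79, adjusted p = 0.0236, and -1.32, adjusted p = 0.0322). Of the listed genes, *Ccr2* was at 0.155 to 1.56 FPKM and *Ly6c2* at 2.42 to 17.6. Dendritic cell markers summed to 6.59, 4.48 and 4.04 in WT, 7.96, 5.41 and 3.85 in M-*Shp2*-/-, and 1.63, 1.10 and 1.60 in SHP099, with *Ccr7* the most abundant and the 1 tested gene, which fell in SHP099 (-1.52, adjusted p = 0.0192). Of the 6 dendritic cell markers, 4 were below 1 FPKM in every library, *Xcr1*, *Flt3* and *Clec9a* among them. *Clec9a* was at 0 in the 3 SHP099 libraries. Mast cell markers summed to 6.10, 4.76 and 6.01 in WT, 2.76, 3.19 and 1.60 in M-*Shp2*-/-, and 0.675, 0.564 and 0.970 in SHP099. The sum was led by *Kit*, and the 1 gene tested did not pass. *Fcer1a* was at 0 throughout. Eosinophil markers summed to 0.449, 0.391 and 0.958 in WT, 1.00, 0.750 and 0.333 in M-*Shp2*-/-, and 0.0549, 0.0304 and 0.0186 in SHP099, led by *Siglecf*, with *Ear6* at 0 throughout and 0 genes high enough to test. The part of these cells in the results on *Tarm1*, *Siglece* and *Lair1* was not tested.

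Neutrophils express *Tarm1* in the mouse, and their part in its level was not tested. Of 10 neutrophil markers, 5 were below 1 FPKM in every library. *Ly6g*, *Cxcr2*, *Retnlg* and *Ngp* were among these, and *Ly6g* was at 0 in 7 of 9. Another 4 averaged 1 FPKM or more, *S100a8*, *Csf3r*, *Mmp8* and *Camp*, with *Csf3r* the highest at a mean of 66.4. The sum over 10 neutrophil markers was 125, 169 and 159 FPKM in WT, 105, 105 and 179 in M-*Shp2*-/-, and 113, 115 and 152 in SHP099, led by *Csf3r*, and 0 of 4 tested genes passed in any comparison by limma, with 0, 0 and 1 at an unadjusted p under 0.05. T cell markers summed to 1.73 to 7.98 FPKM, led by *Lck*, and NK cell markers to 0 to 2.45 FPKM, led by *Gzma*; the 1 T cell marker tested did not pass, and 0 of the NK cell markers were high enough to test. Stromal and mesothelial markers summed to 66.3, 310 and 41.4 FPKM in WT, 139, 52.8 and 595 in M-*Shp2*-/-, and 367, 142 and 103 in SHP099, led by *Col1a1*, and 0 of 6 tested passed by limma, with 0 at an unadjusted p under 0.05 in each comparison.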

How the data were processed

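RNA from cultured peritoneal macrophages was sequenced as 9 libraries, 3 in each of 3 groups. The authors called bases with CASAVA 1.8, aligned paired-end reads with HISAT2 2.0.4, counted them with HTSeq 0.9.1 and deposited FPKM for each gene and library; the tool that made FPKM, the build, the annotation and the counting strand are not stated. Symbols, positions, transcript lengths and coding sequences came from GENCODE M21 (GRCm38), which lacks 353 of the 54059 genes. The members and the lists were chosen with earlier results of these data known. Of 200 listed symbols, 197 were in the table.

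FPKM times mean transcript length gave whole reads (within 0.05) in 96.3% to 96.7% of values up to 50 reads, against 10% by chance, and these reads summed to 98.4% to 98.7% of the depth. Counting error can therefore be estimated for genes that have a GENCODE length, and it covers counting only.

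The 11450 genes whose FPKM averaged 1 or more were compared as log2(FPKM + 1) with limma 3.58.1 (lmFit, eBayes with trend, two-sided, R 4.3.3) on the 6 libraries of each comparison. P values were adjusted by Benjamini-Hochberg over all genes tested, and a gene passed at 0.05. An exact permutation test of 3 against 3 cannot go below 0.1 and was not used. The procedure was tested on simulated data. Alternatives were pseudocounts of 0.1 and 5, no filter, a minimum mean FPKM of 5, median-of-ratios scaling, no trend, all 9 libraries in 1 fit, a replicate block, the study's thresholds, voom on the recovered reads, and each library left out in turn.

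Named genes are the members, the genes of the 5 partner lists (other inhibitory receptors, activating and paired receptors, adaptors and kinases, phosphatases and docking proteins, ligands) that passed in any comparison, the 3 most abundant of each list, the direct partners of members, and the 5 genes most like *Tarm1*; markers of 10 cell types were read beside them. Motifs were searched with Python 3.11.15 and Biopython 1.88, the ITIM in translated GENCODE coding sequences and not in RefSeq proteins, promoter motifs in RefSeq promoters. Tables and plots used numpy 2.4.6, pandas 2.3.3 and matplotlib 3.10.9.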

Additional observations from a re-analysis of the deposited data

How the results depend on the processing

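Groups of 3 libraries, no library without IMQ, and a dose of IMQ that is not stated for M-*Shp2*-/- limit these comparisons. In M-*Shp2*-/- against WT, 1 member passed; 0 passed without the trend in the prior variance, with the replicate block, at the study's thresholds, and with any 1 library left out (0 to 0 over the 6). *Tarm1* had an adjusted p of 0.0724 without the trend and of 0.157 with the replicate block. All genes past the test numbered 10, 1 to 8 with a library left out, 2 to 11 in the other settings at the same threshold, and 1 at the study's thresholds.

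In SHP099 against WT, 2 members passed. Without the filter on low FPKM 1 passed, with a minimum mean FPKM of 5 it was 4 (*Sirpa*, *Tarm1*, *Lair1* and *Siglece*), with median-of-ratios scaling 4 (*Tarm1*, *Lair1*, *Pirb* and *Siglece*), with pseudocount 0.1 and with all 9 libraries in 1 fit 3 (*Tarm1*, *Lair1* and *Siglece*), and at the study's thresholds 1. Leaving out a library gave 1 (without SHP099 replicate 2) to 4 (without WT replicate 3). All genes past the test numbered 797, 47 to 1273 with a library left out, 74 to 889 in the other settings at the same threshold and 19 at the study's thresholds; 47 was reached without SHP099 replicate 2 and 1273 without WT replicate 3. With the replicate block 2 members passed.

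In M-*Shp2*-/- against SHP099, 0 members passed by limma, with 4 at an unadjusted p under 0.05 and 0 by voom. Leaving out a library gave 0 to 5 members, 5 without M-*Shp2*-/- replicate 3. All genes past the test numbered 8, 0 to 2277 with a library left out and 0 to 17 otherwise.

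Some log2 fold changes that did not pass crossed 0 when a library was left out. In M-*Shp2*-/- against WT, *Siglece* ran from -0.36 to 0.27, *Pirb* from -0.10 to 0.0012 and *Pilra* from -0.48 to 0.018. *Cd300a* ran from -0.22 to 0.33 in SHP099 against WT. In M-*Shp2*-/- against SHP099, *Clec12a* ran from -0.26 to 0.22 and *Cd300lf* from -0.067 to 0.60.

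Whether replicate numbers mark pairs is not stated, and the libraries showed no consistent pairing by number. In M-*Shp2*-/- against WT the residual correlation of libraries with the same number was 0.492, -0.431 and 0.185. The highest with another number was -0.0964, 0.544 and 0.356. In SHP099 against WT the same-number values were -0.0411, -0.0896 and 0.454, and the highest others 0.491, 0.235 and -0.157. In M-*Shp2*-/- against SHP099 they were -0.0143, 0.183 and -0.0467, and 0.0996, 0.112 and 0.204.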
